A study of Mus musculus with 48 samples.

Results

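The genes described here encode the parts of the mitochondrial respiratory chain that are transcribed in the nucleus. They were taken as every protein-coding gene in the deposited count table whose symbol begins with Nduf, Uqcr, Sdh, Atp5, Cox4, Cox5, Cox6, Cox7 or Cox8, which gave 97 of 49671 genes. By textbook role they comprise 36 subunits of complex I, 4 of complex II, 8 of complex III, 19 of complex IV and 15 of complex V (ATP synthase). The other 15 encode assembly factors, which help build a complex without remaining in it as a core part.

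The respiratory chain passes electrons from NADH and succinate through complexes I and II to ubiquinone, then through complex III and cytochrome c to complex IV, where oxygen is reduced. Complexes I, III and IV pump protons across the inner membrane, and complex V uses the gradient to make ATP. A small set of core subunits is encoded by mitochondrial DNA, so every complex except complex II combines products of both genomes.

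NMM cells, a mouse melanoma line carrying mutated NRAS, were exposed continuously to 1 of 11 cytokine conditions or left unstimulated, and poly(A) RNA was sequenced at 2, 6, 12 and 24 h, with 1 library for each condition and time (48 libraries). The conditions were IFNγ at 100 ng/ml together with TNF at 10 ng/ml (called the combination), IFNγ alone at 100, 1 or 0.01 ng/ml, TNF alone at 10, 1 or 0.1 ng/ml, IFNα1 at 5000 U/ml, TGFβ at 10 ng/ml, LTα1β2 at 2 ng/ml, IL-2 at 6000 U/ml, and no cytokine. All groups share the one cell line, and the labels do not say whether the libraries came from separate cultures. P-values therefore measure only the spread between these libraries, which may be technical. With 1 library for each condition and time, the spread behind a mean effect also holds any change of that effect between durations. In bulk RNA a smaller number of cells of a kind and less RNA per cell cannot be told apart.

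Libraries held 5612907 to 9663207 counts. Of the melanocyte genes looked up, Mitf had 29 to 97 counts in each library, whereas Dct and Mlana had 0 throughout and Tyr, Tyrp1 and Sox10 had 2 counts each over all 48 libraries, so the labelled lineage rests on few of its defining markers. Pmel had 0 to 8 and S100b 0 to 7 counts per library. Of 8 T and NK cell genes, 6 had 0 counts throughout, and Gzmb and Ptprc had 6 and 14 over all libraries. Of 6 macrophage genes, Cd14 had 151 to 647 and Cd68 11 to 44 counts in each library, whereas Adgre1 had 0 and Csf1r, Itgam and Lyz2 had 21, 4 and 5 over all libraries. Of 6 fibroblast genes, Col3a1 had 307 to 4647, Dcn 54 to 354 and Pdgfra 25 to 171 counts per library, Col1a1 and Col1a2 had 0 to 11 and 2 to 16, and Lum had 8 over all libraries. Of 5 endothelial genes, Cdh5 had 16 to 195 counts per library, and Pecam1, Kdr, Tek and Emcn had 39, 6, 11 and 3 over all libraries. Libraries of 2 h and 6 h carry 24 index sequences, and all 24 recur at 12 h and 24 h, so a difference between 12 h and 6 h and a difference between sequencing pools cannot be told apart.

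A pair of short sequences is shown because the member with the largest log2 change under the combination was Ndufa4, and a related gene outside the member list, AA467197, was higher there. Ndufa4 is a complex IV subunit. AA467197, for which RefSeq lists the synonyms Nmes1 and mir-147, is its paralog, known from inflammatory macrophages to take the place of Ndufa4 in complex IV, and its transcript carries the miR-147 hairpin. In the GENCODE annotation of GRCm38, the hairpin begins at base 34 of the 422-base 3′ UTR of AA467197. The first line is from the 3′ UTR of Ndufa4 (chr6:11900461-11900490, minus strand), and its capitals, UTR bases 52 to 59 of 243, are complementary to the capitals of the second line, the longest such run between the UTR and the hairpin. The second line is from the hairpin in RefSeq (GRCm38.p6, chr2:122640847-122640876, plus strand), where the capitals are bases 49 to 56 of 79.
Ndufa4 site: gaagccaTCCGCACAattttccacttaagc
Mir147 hairpin: ccagUGUGCGGAaaugcuucugcuacauuu
These 8 bases were chosen from the 3′ UTR of Ndufa4, so their presence there was fixed in advance. They occurred in the 3′ UTR of 94 of 20948 genes (0.449%) and, among the 97 members, in that of Ndufa4 alone. The match is a description of letters and not a site shown to act, and the row for the hairpin itself had 0 counts in all 48 libraries, which were made from poly(A) RNA.

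Most of the member genes were expressed. After the filter on low counts 89 of 97 members were tested, namely all 36 subunits of complex I, all 4 of complex II, all 8 of complex III, 11 of 19 of complex IV, all 15 of complex V and all 15 assembly factors. The 8 genes left out are tissue-restricted alternatives to expressed complex IV subunits. Cox8c had 0 counts over all libraries, Cox8b and Ndufa4l2 had 1, Cox4i2 had 3, Cox7b2 had 5, Cox6a2 had 13, Cox6b2 had 31 and Cox7a1 had 43. Their widely expressed counterparts were abundant in every library, with 1132 to 2082 counts for Cox4i1, 371 to 866 for Cox6a1, 418 to 959 for Cox6b1, 302 to 699 for Cox7a2, 183 to 678 for Cox8a and 227 to 812 for Ndufa4. All 3 genes for the ring-forming c subunit of ATP synthase were expressed, with 143 to 313 counts for Atp5g1, 257 to 467 for Atp5g2 and 965 to 1926 for Atp5g3. Processed pseudogenes named after members had 0 to 13 counts each over all libraries.

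Members differed in how steady they were across the 48 libraries. The catalytic β subunit of ATP synthase, Atp5b, was the steadiest, at 1039 to 1246 CPM (counts scaled to library size by the TMM method) and a standard deviation of 0.06 on the log2 scale. The widest were the complex II assembly factor Sdhaf1 (2.20 to 9.12 CPM, standard deviation 0.49), the complex I assembly factor Ndufaf4 (19.2 to 52.2 CPM, 0.41) and Ndufa4 (25.3 to 103 CPM, 0.41). The lowest Ndufa4 value was that of the combination at 24 h. Counting noise is larger at low counts, and Sdhaf1 had 16 to 80 counts per library against 6629 to 10526 for Atp5b. The spread of such low members therefore partly holds that noise.

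With the combination, 22 of 89 tested members were lower and 2 were higher than in unstimulated cells over the 4 durations (edgeR quasi-likelihood test, adjusted p under 0.05). Of all 12203 genes tested, 21.2% were called lower and 20.9% higher, so the share of members called lower, 24.7%, lay near that of all genes, while 2.25% of members were called higher. The median log2 change was −0.15 over the members and −0.03 over all genes, and 71 of 89 members had a value below 0. The share of all genes below 0 is not given here, so that count alone is not a result about the members. Complex I had 11 of 36 subunits lower and 1 higher, complex II 3 of 4 lower, complex III 1 of 8, complex IV 1 of 11 and complex V 4 of 15, while assembly factors had 2 of 15 lower and 1 higher. Left out one at a time, the 2 h libraries gave 41 members lower, the 6 h libraries 8, the 12 h libraries 6 and the 24 h libraries 3. With the IL-2 libraries in place of the unstimulated ones the number was 14. Within the 2 h and 6 h libraries 0 members were lower and within those of 12 h and 24 h 38 were. Fitted on the combination and unstimulated libraries alone the number was 0, and with no filter on low counts 10. For these refits and those of the other stimuli below, the share of all genes called is not given here. Their counts therefore show how far a call depends on the libraries used, and not whether members differ from other genes.

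Ndufa4 had 95.7, 73.3, 39.6 and 25.3 CPM at 2, 6, 12 and 24 h of the combination, against 97.2, 94.8, 71.7 and 94.5 CPM in unstimulated cells. The values lay together at 2 h and were furthest apart at 24 h, and the 2 ranges overlapped. Over the 4 durations the log2 change was −0.70 ± 0.18 (standard error here and below; edgeR adjusted p = 0.0025), and without the 12 h libraries it was −0.65 and not called. The gene lies at chr6:11900292-11907497 (GRCm38).

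Ndufaf7, a methyltransferase that acts during complex I assembly, had 16.8, 12.6, 11.5 and 12.3 CPM with the combination, against 14.2, 20.97, 17.7 and 21.4 CPM in unstimulated cells. It stood above the unstimulated value at 2 h and below it at the 3 later times, with a log2 change of −0.49 ± 0.13 (edgeR adjusted p = 0.0018). Without the 6 h libraries its change was −0.38 and not called.

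Ndufv3, an accessory subunit of the NADH-oxidising module of complex I, had 23.2, 17.96, 15.2 and 13.8 CPM with the combination, against 24.1, 28.1, 19.3 and 25.4 CPM in unstimulated cells. It was lower at all 4 durations, by −0.48 ± 0.12 on average (edgeR adjusted p = 0.00096), and stayed called when any single duration was left out. The complex I membrane-arm subunit Ndufc2 had 44.97, 40.8, 28.4 and 27.4 CPM with the combination, against 48.4, 49.2, 38.6 and 45.6 CPM in unstimulated cells, a log2 change of −0.37 ± 0.10 (edgeR adjusted p = 0.0036). Ndufa5, a subunit of the matrix arm, had 19.1, 17.6, 15.8 and 11.9 CPM with the combination, against 20.8, 22.3, 20.3 and 19.2 CPM in unstimulated cells, and these ranges did not overlap (log2 change −0.37 ± 0.11, edgeR adjusted p = 0.006). Without the 24 h libraries Ndufc2 was at −0.25 and Ndufa5 at −0.27, and neither was called.

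Both members that were higher with the combination belong near complexes I and II. Sdhaf2, which attaches the flavin cofactor to the catalytic subunit of complex II, had 58.5, 72.8, 75.8 and 80.1 CPM with the combination, against 50.2, 59.6, 54.2 and 58.6 CPM in unstimulated cells. It was higher at all 4 durations (log2 change 0.37 ± 0.07, edgeR adjusted p = 4.3e-05) and stayed called when any single duration was left out. Its exons overlap those of Cpsf7 on the opposite strand, and whether the counting used strand is not given in the sources used here. Ndufs4, an accessory subunit whose loss causes complex I deficiency in mice and humans, had 53.2, 45.1, 49.5 and 47.8 CPM with the combination, against 40.04, 42.3, 38.4 and 47.9 CPM in unstimulated cells. Its log2 change was 0.21 ± 0.07 (edgeR adjusted p = 0.018), and it was 0.14 and not called without the 2 h libraries and 0.17 and not called without the 12 h libraries.

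**Figure D1:**
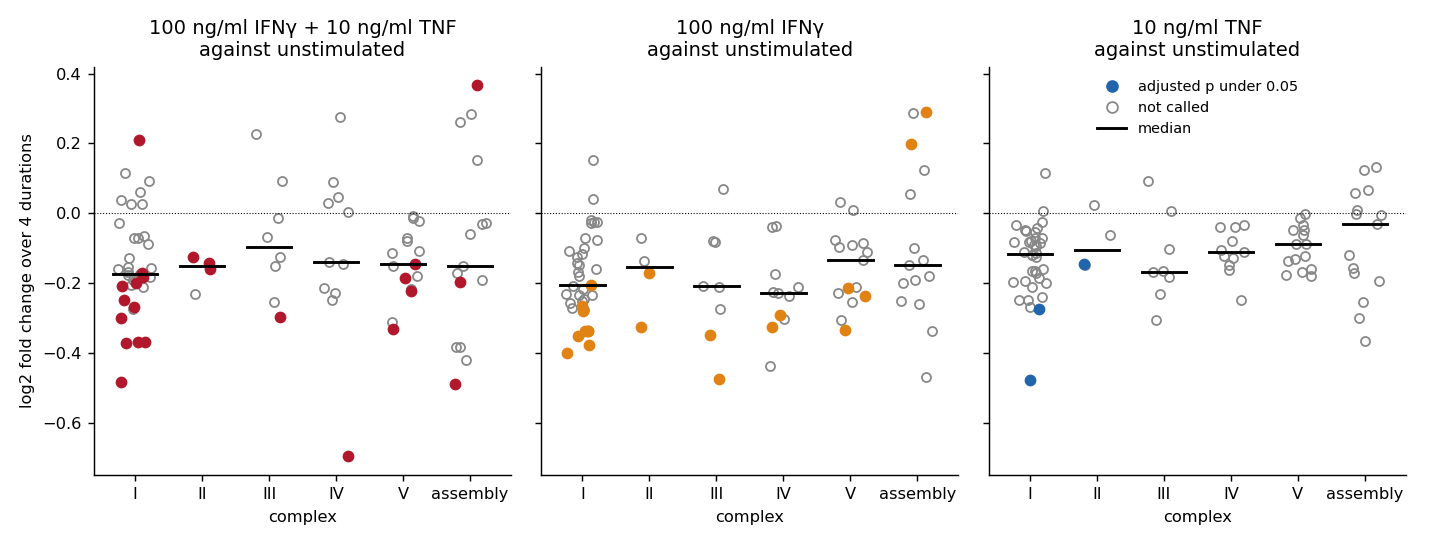
Log2 fold change against unstimulated cells for each of the 89 tested members, by complex, with the combination (left), IFNγ at 100 ng/ml (middle) and TNF at 10 ng/ml (right); filled circles are called at an adjusted p under 0.05 and black bars are medians. The lowest point is Ndufa4 of complex IV with the combination at −0.70, and the complex I medians are −0.17, −0.21 and −0.12 from left to right.

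With IFNγ at 100 ng/ml, 18 of 89 members (20.2%) were lower and 2 were higher than in unstimulated cells, where 9.3% of all genes tested were called lower and 12.8% higher. The median log2 change was −0.20 over the members and −0.02 over all genes. Member transcripts are short, and among 1658 other genes with transcripts no longer than the upper quartile of the members (1623 bases) 10.8% were called lower with a median of −0.09. Values for these genes are not given for the other comparisons, so a part of transcript length in those was not tested. All 18 lower members were subunits (9 of complex I, 2 of complex II, 2 of complex III, 2 of complex IV and 3 of complex V), and both higher members were assembly factors. The number lower was 35 without the 2 h libraries, 1 without those of 6 h, 1 without those of 12 h and 7 without those of 24 h, and 12 with IL-2 libraries as the comparison. Within the 2 h and 6 h libraries 0 members were lower and within those of 12 h and 24 h 23 were. The number was 4 in a fit of the compared groups alone and 9 with no filter on low counts.

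The small complex III subunit Uqcr11 had 31.95, 27.5, 24.0 and 28.95 CPM with IFNγ at 100 ng/ml, against 37.3, 42.9, 38.4 and 38.4 CPM in unstimulated cells. These ranges did not overlap, and the log2 change was −0.48 ± 0.12 (edgeR adjusted p = 0.0045). Ndufa2, a subunit of the NADH-oxidising module, had 42.4, 30.5, 38.5 and 43.5 CPM with this dose, against 53.4, 52.4, 46.3 and 49.4 CPM in unstimulated cells (log2 change −0.38 ± 0.09, edgeR adjusted p = 0.0033). Ndufb7, which lies on the intermembrane-space side of complex I, had 26.8, 28.4, 23.7 and 28.8 CPM, against 33.6, 35.9, 36.5 and 31.6 CPM in unstimulated cells (log2 change −0.35 ± 0.10, edgeR adjusted p = 0.011). Neither Ndufa2 nor Ndufb7 overlapped its unstimulated range. The 6 h library of this dose held the lowest Ndufa2 value of all 48 libraries. Ndufv3 was lower by −0.40 ± 0.12 and Uqcrh, the hinge protein of complex III, by −0.35 ± 0.11. Without the 6 h libraries the calls of Uqcr11 (−0.42), Ndufa2 (−0.26), Ndufv3 (−0.30) and Uqcrh (−0.35) were lost. Without the 12 h libraries those of Uqcr11 (−0.41), Ndufb7 (−0.26), Ndufv3 (−0.42) and Uqcrh (−0.30) were lost, and without the 24 h libraries those of Ndufv3 (−0.37) and Uqcrh (−0.21). Ndufa2 shares exon sequence with Tmco6 on the opposite strand.

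Ndufaf4 had 38.98, 50.6, 39.5 and 30.01 CPM with IFNγ at 100 ng/ml, against 33.3, 43.7, 30.4 and 23.7 CPM in unstimulated cells. It was higher at all 4 durations (log2 change 0.29 ± 0.09, edgeR adjusted p = 0.016), with 0.32 and no call without the 6 h libraries and 0.27 and no call without those of 12 h. Sdhaf2 was higher by 0.20 ± 0.07 (edgeR adjusted p = 0.037), and its change was 0.18, 0.22 and 0.18 and not called without the 2 h, 6 h and 12 h libraries. Ndufa4 itself averaged −0.44 ± 0.18 with this dose and was not called (edgeR adjusted p = 0.08), although without the 2 h libraries it was −0.62 and called.

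IFNγ at 1 ng/ml left 8 of 89 members lower and 0 higher, where 5.47% of all genes were called lower and 9.51% higher. At an unadjusted p under 0.05, 3 members were higher, and DESeq2 called 1. The 5 members with the largest change were Uqcrb, the ubiquinone-binding protein of complex III (log2 change −0.40 ± 0.11), the ATP synthase subunit Atp5j2 (−0.36 ± 0.12), Uqcrh (−0.35 ± 0.11), Ndufc2 (−0.32 ± 0.10) and the c-subunit gene Atp5g1 (−0.30 ± 0.10). Uqcrb had 12.8, 10.5, 9.06 and 11.4 CPM with this dose, against 17.5, 15.1, 11.9 and 13.2 CPM in unstimulated cells, with overlapping ranges. The number lower was 25 without the 2 h libraries, 0 without those of 6 h, 0 without those of 12 h and 1 without those of 24 h, and 1 with IL-2 libraries as the comparison. Without the 24 h libraries the values were −0.22 for Atp5j2, −0.20 for Uqcrh, −0.29 for Ndufc2 and −0.27 for Atp5g1, and these were not called. None of the 89 members differed between 100 and 1 ng/ml IFNγ (0% of all genes called lower and 0% higher; 3 members lower and 0 higher at an unadjusted p under 0.05, and 0 by DESeq2).

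TNF at 10 ng/ml left 3 of 89 members (3.37%) lower and 0 higher, where 7.3% of all genes were called lower and 9.83% higher. The median member change was −0.11. Ndufv3 had 18.8, 18.8, 16.05 and 16.1 CPM with TNF, against 24.1, 28.1, 19.3 and 25.4 CPM in unstimulated cells, and the ranges did not overlap (log2 change −0.48 ± 0.12, edgeR adjusted p = 0.0039). Ndufa2 was lower by −0.27 ± 0.09 and Sdhd, a membrane anchor of complex II, by −0.15 ± 0.05. No member was higher at an unadjusted p under 0.05 or by DESeq2. The number lower was 7 without the 2 h libraries, 0 without those of 6 h, 1 without those of 12 h and 1 without those of 24 h. Without the 6 h libraries Ndufv3 was at −0.43, Ndufa2 at −0.18 and Sdhd at −0.14.

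IFNα1 left 1 of 89 members lower, Atp5g1 (log2 change −0.34 ± 0.10, edgeR adjusted p = 0.024), where 3.09% of all genes were called lower and 6.18% higher. Atp5g1 had 33.6, 31.3, 19.02 and 21.4 CPM with IFNα1, against 33.3, 38.001, 29.1 and 31.9 CPM in unstimulated cells. It was called without the 2 h libraries, which gave 8 lower members, and not without those of 6 h (−0.35), 12 h (−0.26) or 24 h (−0.25). TGFβ called 0 of 89 members in either direction although 3.25% of all genes were called lower and 5.02% higher; 4 members were lower and 1 higher at an unadjusted p under 0.05, and 0 by DESeq2. TNF at 1 ng/ml called 0 members (0.713% of all genes lower, 2.01% higher), TNF at 0.1 ng/ml 0 (0.00819% in each direction), and IFNγ at 0.01 ng/ml, LTα1β2 and IL-2 0 (0% of all genes in each direction). At an unadjusted p under 0.05 these had 4, 4, 1, 2 and 1 members lower, with 1 higher for LTα1β2, and DESeq2 called 0. Shares of all genes at that unadjusted level are not given here. Between 10 and 1 ng/ml TNF 0 members differed (0.238% of all genes higher, 0% lower), with 1 member higher at an unadjusted p under 0.05 and 0 by DESeq2. Member medians lay below 0 with every cytokine, from −0.05 with IL-2, LTα1β2 and TGFβ to −0.20 with IFNγ at 100 ng/ml, and all 11 comparisons use the same unstimulated libraries.

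Against IFNγ at 100 ng/ml alone, the combination had 2 of 89 members higher and 0 lower (8.49% of all genes higher, 5.42% lower), with 1 lower at an unadjusted p under 0.05 and 0 by DESeq2. Both are small subunits. Uqcrq of complex III had 44.4, 64.6, 65.1 and 81.1 CPM with the combination, against 42.2, 28.6, 41.4 and 65.2 CPM with IFNγ alone (log2 change 0.50 ± 0.17, edgeR adjusted p = 0.047). Cox6a1 of complex IV had 79.6, 96.0, 70.2 and 87.8 CPM with the combination, against 66.4, 60.0, 60.2 and 73.6 CPM with IFNγ alone (log2 change 0.35 ± 0.11, edgeR adjusted p = 0.02). Both were higher at all 4 durations and both had their widest gap at 6 h. The 6 h library of IFNγ alone held the lowest value of all 48 libraries for both genes. Those gaps therefore rest on 1 library that was low for both. Without the 2 h libraries 7 members were higher, without those of 6 h or 12 h 0, and without those of 24 h 1, which was Cox6a1. Without the 6 h libraries Uqcrq was at 0.35 and Cox6a1 at 0.25.

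Against TNF at 10 ng/ml alone, the combination had Ndufaf7 (log2 change −0.37 ± 0.13) and the iron-sulfur subunit of complex II, Sdhb (−0.17 ± 0.06), lower and Sdhaf2 higher (0.30 ± 0.07, edgeR adjusted p = 0.0021). Of all genes 4.84% were called lower and 9.12% higher. The number lower was 7 without the 2 h libraries and 0 without those of 6 h, 12 h or 24 h, whereas Sdhaf2 stayed called in each case. Without the 6 h libraries Ndufaf7 was at −0.27 and Sdhb at −0.15. For departure from the sum of the single-cytokine log2 changes, 0 of 89 members were called in either direction (0.0656% of all genes above the sum, 0.0164% below). At an unadjusted p under 0.05, 16 members lay above the sum and 1 below, and DESeq2 called 0. The shares of all genes at that unadjusted level are not given here, so these counts are not a result about the members. For Ndufa4 that departure was −0.01 ± 0.26.

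The median log2 ratio of the members to the unstimulated library of the same duration was 0.04, −0.13, −0.15 and −0.27 at 2, 6, 12 and 24 h of the combination, with 38, 70, 69 and 73 of 89 members below 0. The shares of all genes below 0 are not given here, so those counts alone are not a result about the members. IFNγ at 100 ng/ml gave 0.00, −0.28, −0.21 and −0.21, and TNF at 10 ng/ml gave 0.00, −0.12, −0.07 and −0.21. The lowest median of IL-2 was at 2 h (−0.16), and its other values lay between −0.05 and 0.05. Medians over all genes lay between −0.03 and 0.01 in each of these libraries. The TMM scaling holds the bulk of genes near 0, so those medians were largely fixed in advance.

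**Figure D2:**
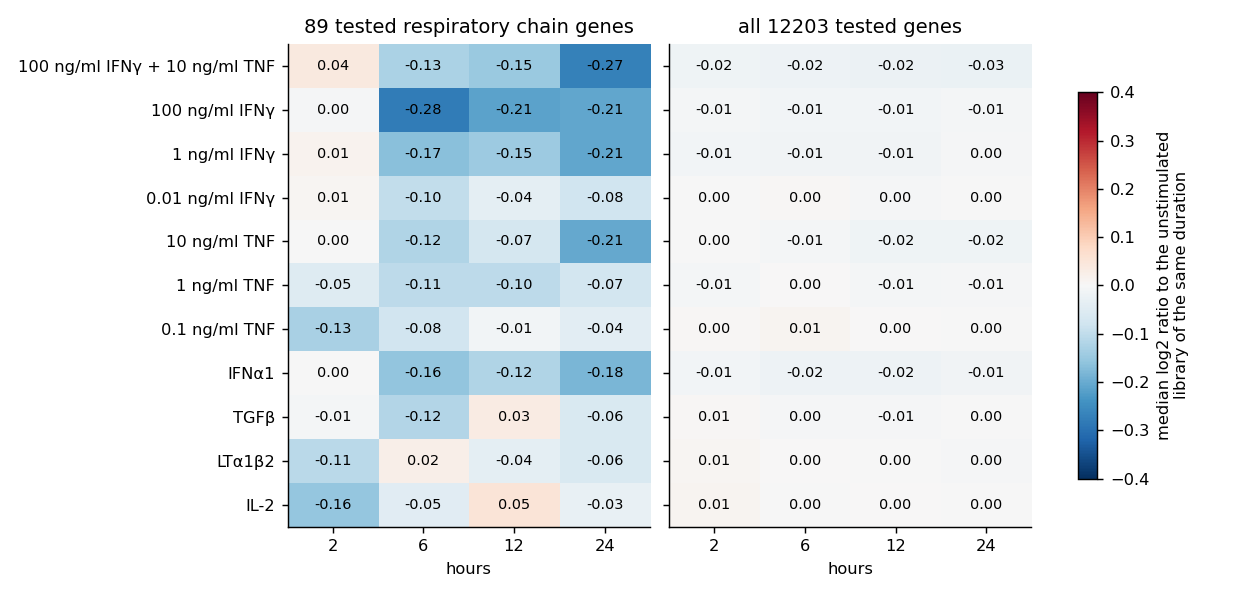
Median log2 ratio of each stimulated library to the unstimulated library of the same duration, over the 89 tested members (left) and over all 12203 tested genes (right), with stimuli as rows and hours as columns. For the members the combination reaches −0.27 at 24 h and IFNγ at 100 ng/ml reaches −0.28 at 6 h, while the medians over all genes stay between −0.03 and 0.01.

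Summed levels at 24 h were lower with the combination for each of the complexes. At this time the tested subunits of complex I summed to 1295 CPM with the combination and 1571 CPM in unstimulated cells. The sums were 433.5 and 541 CPM for complex II, 578 and 629 CPM for complex III, 840.1 and 1026 CPM for complex IV, and 2557 and 3112 CPM for complex V. Assembly factors summed to 246 CPM with the combination and 259.9 CPM in unstimulated cells. At 2 h each complex summed higher with the combination. Those sums were 1601 against 1592 CPM for complex I, 547.6 against 534.4 for II and 625.7 against 602.1 for III. They were 1097 against 1051 CPM for IV and 3202 against 3078 for V. At 24 h all 89 members summed to 5950 CPM with the combination and 7140 CPM in unstimulated cells. The IL-2, LTα1β2 and 0.01 ng/ml IFNγ sums were 6991, 6748 and 6646 CPM. Those of IFNγ at 100 and 1 ng/ml, TNF at 10 ng/ml and IFNα1 were 6249, 6274, 6180 and 6171 CPM. TNF at 1 and 0.1 ng/ml and TGFβ had 6763, 7057 and 6864 CPM. Atp5b and Atp5a1, with medians of 1168 and 734 CPM over the 48 libraries, weigh heavily in all of these sums. The members' share of all counts was 0.553% with the combination at 24 h and 0.75% in unstimulated cells, while the share of mitochondrially encoded genes was 0.513% with the combination and 0.964% in unstimulated cells. Its part in these results was not tested.

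The change of a stimulus effect with time was tested as a slope, the log2 change against unstimulated cells per doubling of hours. With the combination 20 of 89 members (22.5%) had a lower slope and 0 a higher one, where 9.37% of all genes had a lower and 8.04% a higher slope. At an unadjusted p under 0.05, 2 members had a higher slope, and DESeq2 called 0. They comprised 5 of 36 subunits of complex I, 3 of 4 of complex II, 1 of 8 of complex III, 5 of 11 of complex IV, 5 of 15 of complex V and 1 of 15 assembly factors. Without the 2 h libraries 4 members had a lower slope, without those of 6 h 23, without those of 12 h 13, and without those of 24 h 2. With IL-2 libraries as the comparison the number was 28. The share among other genes with short transcripts is not given for this slope, so a part of transcript length was not tested.

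Ndufa4 had the steepest slope of all members with the combination, −0.49 ± 0.06 per doubling (edgeR adjusted p = 1.7e-06), and it stayed called in each of the 9 alternative settings. Its slope was −0.30 ± 0.06 with IFNγ at 100 ng/ml (edgeR adjusted p = 0.0028) and −0.28 ± 0.06 with IFNγ at 1 ng/ml (edgeR adjusted p = 0.0084), and these were −0.13 and −0.18 and not called without the 24 h libraries. With TNF at 10 ng/ml the slope was −0.14 ± 0.06 and was not called (edgeR adjusted p = 0.31).

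Cox7b (chrX:106015700-106022450), a complex IV subunit, had 169, 134, 107 and 94.6 CPM with the combination, 172, 121, 102 and 86.6 CPM with IFNγ at 100 ng/ml, and 144, 150.4, 128 and 159 CPM in unstimulated cells. In both cytokine conditions it started above the unstimulated value at 2 h and ended below it at 24 h, with slopes of −0.26 ± 0.05 and −0.29 ± 0.05. Cox7a2, the widely expressed form of another complex IV subunit (chr9:79755361-79759878), had 83.1, 64.7, 46.9 and 41.3 CPM with the combination, against 73.0, 73.2, 57.4 and 71.0 CPM in unstimulated cells (slope −0.25 ± 0.06).

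Atp5k, which joins ATP synthase dimers (chr5:108433244-108434448), had 37.4, 25.7, 21.6 and 18.3 CPM with the combination, against 32.6, 32.3, 28.1 and 32.002 CPM in unstimulated cells (slope −0.27 ± 0.07). Uqcrh (chr4:116066965-116075071) had 113, 85.5, 60.4 and 64.2 CPM with the combination, against 101, 95.9, 86.3 and 104 CPM in unstimulated cells (slope −0.24 ± 0.04). All of these started at or above the unstimulated value at 2 h and lay below it from 6 h on. Ndufaf7 was next to Ndufa4 in size of slope with the combination, at −0.27 ± 0.08, and was −0.03 and no call without the 2 h libraries. Without the 2 h libraries the slope of Atp5k was −0.23 and not called, and without the 24 h libraries those of Ndufaf7 (−0.38), Atp5k (−0.25), Cox7b (−0.20) and Cox7a2 (−0.20) were not called.

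IFNγ at 100 ng/ml had 7 members with a lower slope and 0 with a higher one (3.43% of all genes lower, 3.47% higher), IFNγ at 1 ng/ml 7 and 0 (2.7% and 2.35%), and IFNα1 1 and 0, the one being Cox7b (0.451% and 0.377%). Slopes of Cox7b, Atp5k, Uqcrh and Cox7a2 were −0.29, −0.24, −0.24 and −0.23 with IFNγ at 100 ng/ml and −0.26, −0.25, −0.27 and −0.23 with IFNγ at 1 ng/ml, and these comparisons share the unstimulated libraries. With the durations left out in turn, from 2 h to 24 h, the counts were 1, 7, 5 and 0 for 100 ng/ml, 2, 7, 4 and 0 for 1 ng/ml, and 0, 3, 0 and 0 for IFNα1. Without the 2 h libraries the slopes of Cox7b (−0.28), Atp5k (−0.16), Uqcrh (−0.20) and Cox7a2 (−0.24) were not called with 100 ng/ml, nor those of Cox7b (−0.31), Atp5k (−0.31) and Cox7a2 (−0.32) with 1 ng/ml. At an unadjusted p under 0.05, 0, 1 and 0 members had a higher slope with these, and DESeq2 called 0. The remaining 7 stimuli had 0 members with a called slope, and DESeq2 called 0. Of these, TNF at 10 ng/ml (1.38% of all genes lower, 1.06% higher) had 10 members lower at an unadjusted p under 0.05, and IL-2 (0% in each direction) had 9 higher. The numbers lower and higher at that level were 6 and 1 for TGFβ (0.795% and 0.697% of all genes called), 2 and 1 for TNF at 1 ng/ml (0.041% and 0.0164%), 1 and 6 for TNF at 0.1 ng/ml (0.0574% and 0%), 7 and 1 for IFNγ at 0.01 ng/ml and 2 and 2 for LTα1β2 (0% in each direction for both). The shares in brackets are at an adjusted p under 0.05. Shares of all genes at an unadjusted p are not given here, so the unadjusted counts cannot be set against these percentages.

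**Figure D3:**
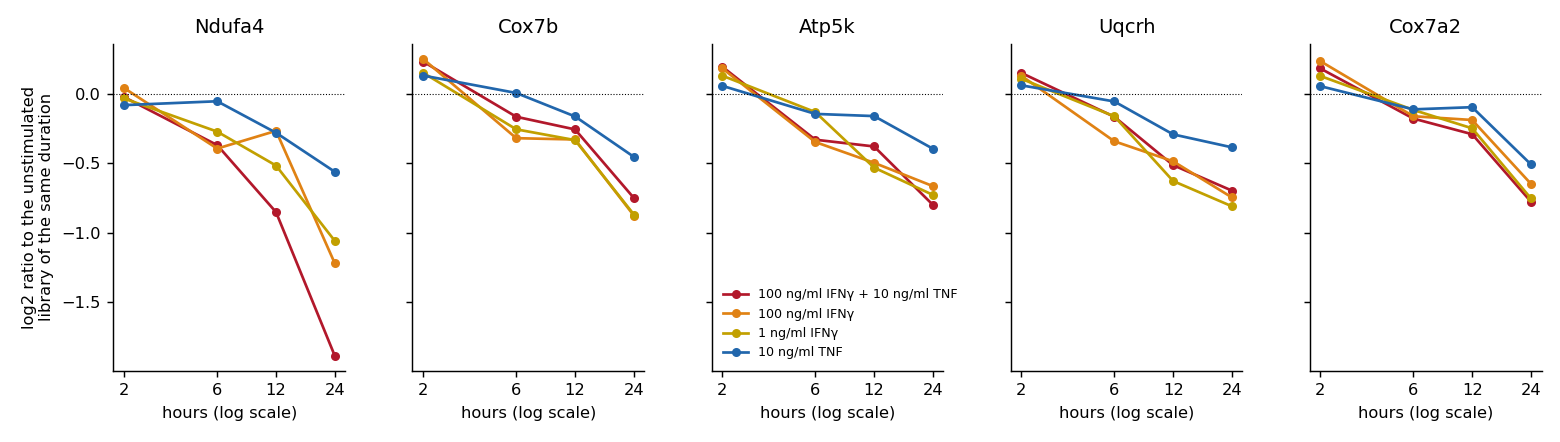
Log2 ratio to the unstimulated library of the same duration against hours (log scale) for Ndufa4, Cox7b, Atp5k, Uqcrh and Cox7a2, with 1 library per point. Lines for the combination and for IFNγ at 100 and 1 ng/ml fall below 0 from 6 h on, and Ndufa4 with the combination goes lowest, while TNF at 10 ng/ml lies above them at 24 h in each panel.

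AA467197, the paralog of Ndufa4, moved the other way. It had 20.7, 71.3, 122 and 118 CPM with the combination, against 3.16, 3.70, 7.23 and 3.37 CPM in unstimulated cells, and every combination value lay above every unstimulated one. The log2 change was 4.17 ± 0.27 with the combination, 3.10 ± 0.28 with IFNγ at 100 ng/ml, 2.91 ± 0.29 at 1 ng/ml, 1.97 ± 0.30 with TNF at 10 ng/ml, 1.30 ± 0.32 with TNF at 1 ng/ml and 1.87 ± 0.31 with IFNα1 (edgeR adjusted p of 1.2e-14, 2.7e-10, 2.2e-09, 1.4e-05, 0.017 and 6e-05). With TNF at 1 ng/ml it was not called without the 6 h (1.26), 12 h (1.30) or 24 h libraries (1.03). TNF at 0.1 ng/ml and IFNγ at 0.01 ng/ml gave 0.85 ± 0.33 and 0.40 ± 0.35 and were not called (edgeR adjusted p of 0.92 and 1.0). Its departure from the sum of the single-cytokine changes was −0.90 ± 0.37 and was not called (edgeR adjusted p = 0.32). TGFβ, LTα1β2 and IL-2 libraries held 2.16 to 6.69 CPM.

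Scaled to transcript length, AA467197 passed Ndufa4 in the combination. Ndufa4 stood at 157, 120.2, 64.9 and 41.5 CPM per kb of transcript at 2, 6, 12 and 24 h and AA467197 at 26.2, 90.0, 154 and 149, so that the ratio of AA467197 to Ndufa4 was 0.167, 0.748, 2.38 and 3.6. With IFNγ at 100 ng/ml the ratio was 0.15, 0.295, 0.668 and 0.944, with TNF at 10 ng/ml 0.0271, 0.0904, 0.365 and 0.377, and in unstimulated cells 0.025, 0.0301, 0.0777 and 0.0275. These are levels of RNA, and the protein was not measured. The transcript lengths used were 610 bases for Ndufa4 and 792 bases for AA467197.

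**Figure D4:**
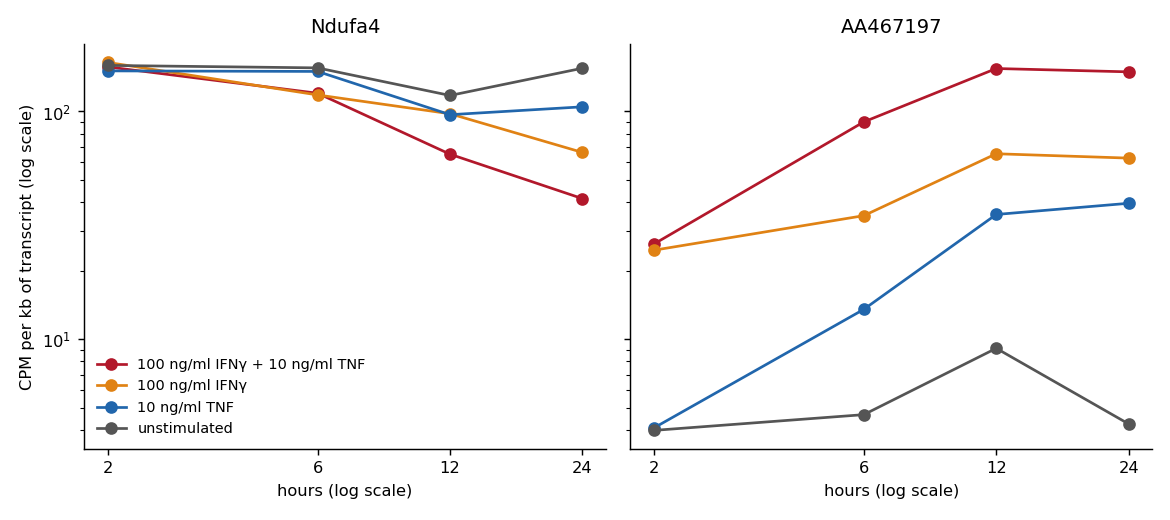
Level in CPM per kb of transcript (log scale) against hours (log scale) for Ndufa4 (left) and AA467197 (right) with the combination, IFNγ at 100 ng/ml, TNF at 10 ng/ml and no cytokine, 1 library per point. With the combination Ndufa4 ends at 41.5 and AA467197 at 149, against 155 and 4.25 in unstimulated cells at 24 h.

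Other genes of the respiratory chain and of mitochondrial metabolism were described from lists chosen by function. Among 9 subunits encoded by mitochondrial DNA, the combination had 3 lower and 1 higher, beside 21.2% lower and 20.9% higher of all genes, shares that also stand behind the other lists in this comparison. mt-Nd1 of complex I had 2740.3, 1885, 796 and 521 CPM with the combination, against 2292, 2319.8, 1275 and 1645 CPM in unstimulated cells (log2 change −0.56 ± 0.17; not called without the 12 h libraries at −0.52 or the 24 h libraries at −0.21). The higher one was mt-Co1 of complex IV (0.12 ± 0.05), which was not called without the 2 h (0.11), 6 h (0.14) or 12 h libraries (0.08). In slope, 4 of 9 were lower, beside 9.37% of all genes, with mt-Nd1 at −0.51 ± 0.07 per doubling.

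Of 9 further chain components, 2 were higher with the combination, AA467197 and Cycs (cytochrome c, which carries electrons from complex III to IV and also acts in apoptosis), and 2 lower. Cycs had 40.8, 49.0, 70.1 and 67.1 CPM with the combination, against 37.7, 39.9, 36.5 and 34.3 CPM in unstimulated cells (log2 change 0.61 ± 0.12, edgeR adjusted p = 4.7e-05). The lower ones were Atpif1, the inhibitor of ATP synthase running in reverse (−0.37 ± 0.09), and Higd2a, an assembly factor of complex IV (−0.29 ± 0.11, and −0.22, −0.34 and −0.13 without a call when the 6 h, 12 h and 24 h libraries were left out). Of 41 assembly and metal- or heme-delivery factors outside the member prefixes, 6 (14.6%) were higher and 7 (17.1%) lower, both below the shares over all genes (20.9% and 21.2%), with Cox18, which inserts a core subunit of complex IV (0.84 ± 0.17), and Foxred1, a complex I assembly factor (0.56 ± 0.12), among the higher.

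Of 20 glycolysis genes 13 were lower and 4 higher with the combination, and of 23 genes of the tricarboxylic acid cycle and pyruvate entry 11 were lower and 3 higher, beside 21.2% and 20.9% of all genes. Hexokinase 2 (Hk2) was higher by 1.16 ± 0.14, and Pdk1 and Pdk2, kinases that switch off pyruvate dehydrogenase, were lower by −1.06 ± 0.23 and −1.60 ± 0.31. Pyruvate carboxylase (Pcx) was lower by −0.97 ± 0.19. Of 21 regulators of mitochondrial biogenesis and mtDNA expression 4 were higher and 4 lower, with the mtDNA helicase Twnk at −0.41 ± 0.07, Tfb2m at −0.31 ± 0.12 and the nuclear receptor Esrra at 0.34 ± 0.14. Tfb2m was not called without the 6 h (−0.30), 12 h (−0.23) or 24 h libraries (−0.28), nor Esrra (0.44, 0.36 and 0.11). Of 26 genes of import and inner membrane organisation 2 were higher and 5 lower.

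Over all stimuli, 12 h against 6 h had 38 of 89 members (42.7%) lower and 2 higher, where 27.1% of all genes were called lower and 27.6% higher. The median was −0.10 over the members and 0.00 over all genes. The share among other genes with short transcripts is not given for this contrast, so a part of transcript length was not tested. In this contrast, 14 of 36 subunits of complex I, 2 of 4 of complex II, 3 of 8 of complex III, 7 of 11 of complex IV and 8 of 15 of complex V were lower, with 4 of 15 assembly factors. Ndufa4 was lower by −0.43 ± 0.11 and Cox7a2 by −0.32 ± 0.08. In contrasts between durations the 12 stimulus groups served as the spread, so their p-values do not measure repeats of the same stimulus and time. Every value of 12 h against 6 h, here and below, cannot be told apart from a difference between sequencing pools. At 6 h against 2 h, 15 members were lower and 9 higher (27.5% and 29.6% of all genes), and at 24 h against 12 h 2 were lower and 14 higher (16.9% and 15.2%). In the unstimulated, IL-2, LTα1β2 and 0.01 ng/ml IFNγ libraries alone, 1 member was lower at 6 h against 2 h and 0 were higher at 12 h against 6 h. The number lower at 12 h in these libraries is not given here. Summed over the 89 members, these groups in that order held 7266, 7134, 7369 and 6837 CPM at 6 h. At 12 h they held 6549, 6869, 6454 and 6443 CPM. The combination held 6852 CPM at 6 h and 6193 CPM at 12 h.

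Sdhaf1, which brings iron-sulfur clusters to Sdhb (chr7:30321406-30323895), had medians over the 12 groups of 4.03, 7.77, 3.97 and 4.19 CPM at 2, 6, 12 and 24 h. The 12 values at 6 h, from 6.02 to 9.12 CPM, all lay above those at 2 h (2.77 to 4.92), 12 h (2.70 to 5.26) and 24 h (2.20 to 5.44). The log2 change was 0.91 ± 0.11 at 6 h against 2 h and −0.93 ± 0.11 at 12 h against 6 h (edgeR adjusted p = 1.8e-09 for both). Both p-values take the 12 stimulus groups as the spread, and the second change may also be one between sequencing pools.

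Ndufaf4 had medians of 33.3, 47.9, 30.9 and 22.7 CPM at the 4 durations. Its values at 6 h (39.5 to 52.2 CPM) lay above those at 2 h (30.4 to 39.1 CPM), and it then fell by 0.58 on the log2 scale at 12 h against 6 h and by 0.46 at 24 h against 12 h. Sdhaf3, a second iron-sulfur factor of complex II, had medians of 4.85, 6.24, 4.06 and 5.13 CPM with overlapping ranges, and changed by 0.34 ± 0.11 at 6 h and −0.60 ± 0.11 at 12 h. Cox7a2l, a factor that joins complexes III and IV into supercomplexes, ran the other way, with medians of 66.9, 50.5, 43.8 and 62.1 CPM. Its 2 h values (62.4 to 68.9 CPM) all lay above its 6 h values (47.4 to 55.3 CPM), with changes of −0.40 ± 0.04 at 6 h against 2 h and 0.35 ± 0.05 at 24 h against 12 h. Exons of Sdhaf1 overlap those of E130208F15Rik on the opposite strand.

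**Figure D5:**
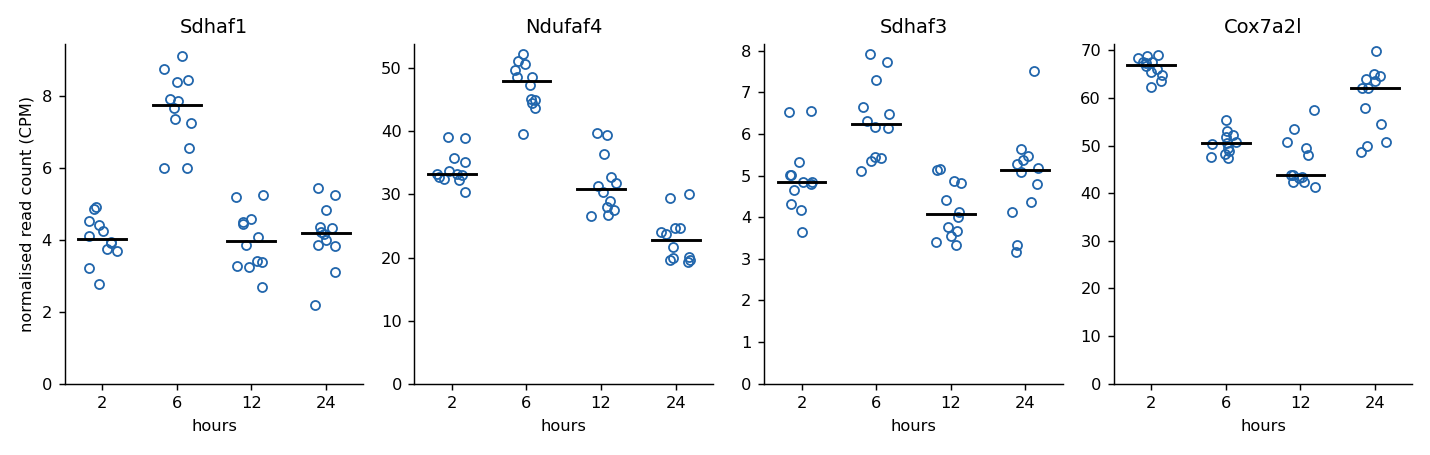
Normalised read count in CPM by duration for Sdhaf1, Ndufaf4, Sdhaf3 and Cox7a2l, where each circle is 1 of the 12 stimulus groups and black bars are medians. The 12 values of Sdhaf1 at 6 h, 6.02 to 9.12 CPM, lie above all others of that gene, and those of Cox7a2l at 2 h lie above those at 6 h.

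Of the 41 assembly and delivery factors 20 were higher and 1 was lower at 6 h against 2 h, including Coa4 (0.85 ± 0.14) and Taco1 (0.75 ± 0.07), while 29.6% of all genes were called higher. Of 21 biogenesis genes 9 were higher and 3 lower, beside 29.6% and 27.5% of all genes, with the mitochondrial RNA polymerase Polrmt at 0.64 ± 0.07. At 12 h against 6 h the mtDNA-encoded mt-Nd1 was lower by −0.82 ± 0.10 and the import chaperone Timm9 by −0.74 ± 0.06.

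Promoter windows of members were read from RefSeq (GRCm38.p6, 250 bases before to 50 after a start), with 81 of 97 members matched, for the letters of 3 motifs known from respiratory chain promoters, each searched on both strands. The NRF1 core, which stands in capitals in the first and second window printed here, occurred in 7 of 81 members (8.64%) and in 1.07% of 27025 genes with a window. The ETS core CCGGAAG, bound by the GABP factor among others, occurred in 21 of 81 members (25.9%) and in 9.93% of all genes, and the YY1 core AAGATGGCG in 11.1% and 1.64%. Windows around the motif, in capitals, are given for members whose changes are described above, each on the strand of the gene.
Atp5k, NRF1 core, chr5:108434430-108434459: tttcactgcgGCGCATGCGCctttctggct
Ndufaf4, NRF1 core, chr4:24897960-24897989: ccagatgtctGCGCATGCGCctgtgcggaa
Uqcrh, ETS core, chr4:116075062-116075091: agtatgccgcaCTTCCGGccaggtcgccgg
Sdhaf1, ETS core, chr7:30322350-30322379: tcggggcggtcCTTCCGGccagtgtggggc
Among the members lower with the combination that had a window, 0 of 20 held the NRF1 core, 0 held the YY1 core and 5 held the ETS core, and among the other tested members with a window the numbers were 7, 9 and 16 of 57. Among members lower with IFNγ at 100 ng/ml the NRF1, YY1 and ETS cores were in 1, 0 and 7 of 16, and among the others in 6, 9 and 14 of 61. Among members with a lower slope with the combination they were in 1, 1 and 5 of 16, and among the others in 6, 8 and 16 of 61. Among members lower at 12 h against 6 h they were in 3, 3 and 10 of 34, and among the others in 4, 6 and 11 of 43. These are counts of letters without a test.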

How the data were processed

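The authors deposited raw counts of stranded mRNA sequencing reads per gene, 49671 genes in 48 libraries. Reads were aligned with HISAT to GRCm38, per the submitters' processing notes; the sources used here name no counting tool, annotation or strand setting. Doses were taken from the stimulus labels.

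Counts were fitted as deposited with edgeR 4.0.16 (quasi-likelihood, robust; R 4.3.3, limma 3.58.1), with TMM normalisation and a filter on low counts (minimum count 10, minimum total 15) that left 12203 genes. Mean effects came from a model with stimulus and duration as terms (33 residual degrees of freedom), so each library is compared with those of the same duration. Slopes came from a model with a term for each stimulus on log2 hours (22 residual degrees of freedom). P-values were adjusted by Benjamini-Hochberg over all genes tested, with calls under 0.05. Every share of all genes called is at that adjusted level, also where a count of members at an unadjusted p stands beside it. Standard errors were computed from the fold change and the F statistic and are approximate. Log2 ratios of single libraries used a prior count of 2. The scripts were tested on simulated data. DESeq2 1.42.0, other normalisation, no filter, other references and left-out durations were alternatives. With 5612907 to 9663207 counts per library, precision is lowest for genes of a few CPM.

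Genes printed with values are up to 5 called members with the largest change in each direction per comparison, members with few counts, isoform pairs, and genes called in the functional lists. The members and lists were chosen with earlier results of these data known.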

Additional observations from a re-analysis of the deposited data

Results flagged for a closer look

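Effects that differed between durations are listed here, each from the test of a stimulus slope against that of unstimulated cells (log2 change per doubling of hours, edgeR). The combination had 20 members with a lower slope, with Ndufa4 at −0.49, Ndufaf7 at −0.27, Atp5k at −0.27, Cox7b at −0.26 and Cox7a2 at −0.25 the largest. IFNγ at 100 ng/ml had 7, with Ndufa4 at −0.30, Cox7b at −0.29, Atp5k at −0.24, Uqcrh at −0.24 and Cox7a2 at −0.23. IFNγ at 1 ng/ml had 7, with Ndufa4 at −0.28, Uqcrh at −0.27, Cox7b at −0.26, Atp5k at −0.25 and Cox7a2 at −0.23. IFNα1 had 1, Cox7b at −0.20. All share the unstimulated libraries.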

How the results depend on the processing

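Durations pair the libraries across stimuli by label, and the duration term of the main model is called the replicate block here. The durations are different times and not repeats of the same time. Numbers below are members called, without the share of all genes called in the same setting. With no replicate block (no duration term) the combination had 3 lower and 1 higher, IFNγ at 100 ng/ml 2 and 0, IFNγ at 1 ng/ml, TNF at 10 ng/ml and IFNα1 0 lower, the combination against IFNγ 0 higher and against TNF 0 lower. In the 12 h and 24 h libraries alone the combination had 38 lower and 1 higher, IFNγ at 100 ng/ml 1 higher, IFNγ at 1 ng/ml 15 lower, TNF at 10 ng/ml 8 lower, TNF at 1 ng/ml 1 lower and IFNα1 6 lower. There the combination against IFNγ had 1 lower and 1 higher, and against TNF 2 higher. In the 2 h and 6 h libraries alone the combination had 0 lower and 0 higher, IFNγ at 100 ng/ml 0 and 0, IFNγ at 1 ng/ml, TNF at 10 ng/ml and IFNα1 0 lower, the combination against IFNγ 0 higher and against TNF 0 and 0. With the DESeq2 Wald test IFNγ at 1 ng/ml had 1 higher, and lower slopes numbered 13 for the combination and 2 for IFNα1; with DESeq2 size factors IFNγ at 1 ng/ml had 1 higher. With IL-2 as reference the combination had 14 lower, IFNγ at 1 ng/ml 1 lower and 1 higher, and TNF at 10 ng/ml 5 lower, and lower slopes numbered 11 for IFNγ at 1 ng/ml, 3 for TNF at 10 ng/ml and 3 for IFNα1. In the quiet libraries (unstimulated, IL-2, LTα1β2, IFNγ at 0.01 ng/ml) 6 h against 2 h had 1 lower and 12 h against 6 h 0 higher, and Uqcrc2 turned to −0.0226 at 12 h against 6 h, against 0.10 in all libraries. With the compared groups alone the combination had 0 lower and 1 higher, IFNγ at 100 ng/ml 4 and 0, IFNγ at 1 ng/ml 1 lower, TNF at 1 ng/ml 1 lower, IFNα1 0 lower, the combination against IFNγ 1 higher and against TNF 0 lower, with slopes of 5 lower and 1 higher for the combination, 0 lower for IFNα1 and 3 higher for IL-2. With no filter the combination had 10 lower, IFNγ at 100 ng/ml 9 and 1, IFNγ at 1 ng/ml 1, TNF at 10 ng/ml 1 and IFNα1 0 lower, the combination against IFNγ 1 higher and against TNF 0 lower, with 11 lower slopes for the combination. The cause was not tested.

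Leaving out each duration gave 3 to 41 lower and 1 to 3 higher for the combination, 1 to 35 and 0 to 3 for IFNγ at 100 ng/ml, 0 to 25 and 0 to 1 for IFNγ at 1 ng/ml, 0 to 7 lower for TNF at 10 ng/ml, 0 to 8 lower for IFNα1, 0 to 1 in each direction for TGFβ, 0 to 2 lower and 0 to 7 higher for the combination against IFNγ, 0 to 7 lower and 1 to 2 higher against TNF, and 0 to 1 above the sum. Lower slopes ranged over 2 to 23 for the combination, 0 to 7 (with 0 to 1 higher) for IFNγ at 100 ng/ml, 0 to 7 at 1 ng/ml and 0 to 3 for IFNα1. Slopes within 2 durations or without a duration term, and left-out durations for contrasts between durations, were not run. One library per condition and time limits every value.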
